A study of Mus musculus with 27 samples.

Results

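The genes described here carry the symbols of cytoplasmic translation initiation factors. Most encode proteins that help bring the initiator tRNA and the small ribosomal subunit to an mRNA and place them at its start codon. Others encode regulators of initiation or proteins that act elsewhere, as described below. The genes were taken as the protein-coding entries of the deposited RNA table whose symbol starts with Eif and a digit. This gave 55 of 20192 protein-coding entries and of 38582 entries in all. The choice used symbols only and no measured value. The cells were mouse embryonic stem cells, pluripotent cells kept in serum and leukemia inhibitory factor. The study asked about WDR43, a nucleolar protein of the machinery that processes ribosomal RNA precursors, on chromatin and in transcription.

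In 4 RNA libraries, 2 from shWDR43 cells (short hairpin RNA against WDR43) and 2 from shCtl cells (control hairpin), both labelled wildtype, poly(A) RNA was sequenced and scaled with spike-in. RNA polymerase II (Pol II) was mapped by chromatin immunoprecipitation (ChIP) in the same knockdown groups, 2 libraries per group, with 3 antibodies. These were against the hypophosphorylated form (hypoP), the form phosphorylated on serine 5 of its tail (Ser5P, found early in genes) and that phosphorylated on serine 2 (Ser2P, found late in genes). WDR43 was mapped through a FLAG epitope in 1 library each of cells carrying Fbio-tagged WDR43 treated with DRB, with ActD or with DMSO. DRB inhibits transcription elongation, ActD is read here as actinomycin D, a blocker of transcription, and DMSO is the vehicle; doses and times are not given in the labels. The remaining WDR43 libraries, named FB and cFB-KI, carry no genotype or treatment label. The labels do not name the hairpin sequences, the time after knockdown or the clonality of the tagged cells, and for ChIP they do not say whether numbers 1 and 2 are separate cultures. The deposited table header calls the RNA samples biological replicates.

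Initiation runs in steps. eIF2, loaded with GTP and initiator tRNA, joins the small subunit together with eIF1, eIF1A, eIF3 and eIF5; the eIF4F complex of cap-binding eIF4E, scaffold eIF4G and helicase eIF4A then recruits the mRNA, and eIF5B joins the large subunit. eIF2B recharges eIF2 with GTP, kinases that phosphorylate eIF2 block that recharging, and eIF4E-binding proteins keep eIF4E from eIF4G. Embryonic stem cells are known for modest overall protein synthesis that rises on differentiation.

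Promoters are shown for 6 members on which the results below turn: Eif1ax, which had the largest RNA decrease; Eif3k, the eIF3 subunit gene with the largest decrease after Eif3j2; Eif4a1, the most abundant member; Eif1 and Eif3b, with the highest-scoring WDR43 peaks under DRB; and Eif5b, with the single WDR43 peak under ActD. Each runs from 250 bases before to 50 bases after the annotated start, 5′ to 3′ on the gene's strand, from RefSeq on build GRCm38.p6. Capitals mark motif matches on either strand. The intervals are chrX:159371928-159372227 (plus strand) for Eif1ax, chr7:28981839-28982138 (minus) for Eif3k, chr11:69672374-69672673 (minus) for Eif4a1, chr11:100319699-100319998 (plus) for Eif1, chr5:140419055-140419354 (plus) for Eif3b and chr1:37997760-37998059 (plus) for Eif5b.
Eif1ax: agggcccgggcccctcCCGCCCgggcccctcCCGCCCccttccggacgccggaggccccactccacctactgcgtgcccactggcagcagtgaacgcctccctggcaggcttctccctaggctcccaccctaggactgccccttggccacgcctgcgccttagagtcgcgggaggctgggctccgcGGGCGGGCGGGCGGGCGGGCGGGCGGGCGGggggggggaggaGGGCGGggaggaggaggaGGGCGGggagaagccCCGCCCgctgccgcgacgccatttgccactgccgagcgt
Eif3k: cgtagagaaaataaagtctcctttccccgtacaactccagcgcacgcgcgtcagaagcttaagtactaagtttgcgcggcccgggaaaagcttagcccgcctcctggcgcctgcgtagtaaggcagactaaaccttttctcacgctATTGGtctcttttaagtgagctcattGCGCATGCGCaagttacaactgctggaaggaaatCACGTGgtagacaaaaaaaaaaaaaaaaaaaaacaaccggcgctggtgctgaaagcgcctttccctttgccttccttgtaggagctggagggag
Eif4a1: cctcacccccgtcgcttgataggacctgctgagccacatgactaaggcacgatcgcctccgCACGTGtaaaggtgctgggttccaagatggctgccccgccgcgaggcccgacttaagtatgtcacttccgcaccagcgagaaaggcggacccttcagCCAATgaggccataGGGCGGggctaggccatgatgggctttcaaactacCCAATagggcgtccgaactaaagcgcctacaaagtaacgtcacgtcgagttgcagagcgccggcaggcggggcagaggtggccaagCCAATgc
Eif1: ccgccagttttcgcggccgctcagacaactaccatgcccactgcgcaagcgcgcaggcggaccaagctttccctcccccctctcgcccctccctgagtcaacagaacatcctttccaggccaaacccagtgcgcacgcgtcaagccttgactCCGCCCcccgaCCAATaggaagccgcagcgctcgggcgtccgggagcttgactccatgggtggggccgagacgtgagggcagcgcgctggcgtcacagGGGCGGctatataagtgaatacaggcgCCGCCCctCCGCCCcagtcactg
Eif3b: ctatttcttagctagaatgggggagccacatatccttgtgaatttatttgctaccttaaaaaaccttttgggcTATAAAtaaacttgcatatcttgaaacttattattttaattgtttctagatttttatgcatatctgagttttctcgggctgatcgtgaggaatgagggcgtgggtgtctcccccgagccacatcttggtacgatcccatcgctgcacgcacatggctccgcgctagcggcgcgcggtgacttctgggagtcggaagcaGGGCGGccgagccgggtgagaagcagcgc
Eif5b: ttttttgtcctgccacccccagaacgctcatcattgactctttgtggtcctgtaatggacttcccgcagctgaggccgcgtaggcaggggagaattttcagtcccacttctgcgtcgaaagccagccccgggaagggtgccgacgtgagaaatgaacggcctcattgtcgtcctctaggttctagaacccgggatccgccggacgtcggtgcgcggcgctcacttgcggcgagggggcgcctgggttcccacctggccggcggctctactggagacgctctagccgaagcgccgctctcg

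The Eif1ax promoter held 12 overlapping or separate matches to the GC box GGGCGG and none to the other motifs. Eif3k held 1 E-box CACGTG, 1 CCAAT box and 1 match to the NRF1 motif. Eif4a1 held 1 E-box, 3 CCAAT boxes and 1 GC box, Eif1 held 1 CCAAT box and 4 GC boxes, Eif3b held 1 GC box and 1 match to TATAAA, and the Eif5b window held no match. The RefSeq table matched 43 of the 55 members, 6 of them with more than 1 promoter, and a member was counted when any of its promoters matched. CACGTG stood in 23.3% of the matched members, against 12.8% of 8080 tested protein-coding genes and 8.09% of 27025 genes in the table. The ETS motif CCGGAAGT stood in 18.6% of the members, against 9.94% of tested protein-coding genes and 4.31% of all genes. GGGCGG stood in 76.7% of members, against 72.3% and 38.2%, TATAAA in 9.30%, against 8.00% and 15.7%, and CCAAT in 34.9%, against 43.6% and 41.1%. The NRF1 motif, a palindrome searched without mismatch, stood in 2.33% of members, against 2.64% and 1.07%. A C followed by 4 further pyrimidines within 10 bases of the annotated start, the letters that begin many translation-machinery mRNAs, stood in 37.2% of members, against 37.1% and 34.4%. The E-box members were Eif1b, Eif3a, Eif3f, Eif3k, Eif4a1, Eif4e, Eif4g1, Eif4h, Eif5a and Eif5a2. A match is a description of letters and not of binding, and no test was made of these shares.

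Wdr43 RNA itself was 21.2 and 20.7 FPKM in shWDR43 cells, against 82.3 and 78.2 FPKM in shCtl cells (FPKM, fragments per kilobase of transcript, on the deposited spike-in scale). Its log2 fold change was −1.89 ± 0.12 (SE; limma with Benjamini-Hochberg adjustment over 12452 genes, adjusted p = 0.000751). The deposited values summed to 687051 and 681178 in shWDR43 cells, against 1015232 and 1040749 in shCtl cells, and the median log2 fold change of all 12452 tested genes was −0.39 (quartiles −0.71 and −0.06). Of these genes, 42.7% were lower and 6.10% were higher in shWDR43 cells at an adjusted p under 0.05. Centring each library on its median moved the fold changes up by 0.33 on the log2 scale and left 20.9% lower and 13.0% higher. Marker genes of the embryonic stem cell state summed to 1340 and 1194 FPKM in shWDR43 cells, against 2513 and 2462 FPKM in shCtl cells, with 6 of 7 lower. Marker sums of other cells were higher in shWDR43 cells: 117 and 182, against 76.6 and 95.8 in shCtl cells, for fibroblasts; 19.2 and 22.7, against 11.3 and 10.8, for trophectoderm; and 6.5 and 6.6, against 3.6 and 3.2, for primitive endoderm. S100a4 alone held 79.9 and 117.9 of the fibroblast sum in shWDR43 cells, against 46.6 and 54.3 in shCtl cells. Of the markers tested, 1 of 5 for fibroblasts was higher (S100a4) and 1 was lower (Thy1, log2 fold change −1.35). For trophectoderm 2 of 4 were higher (Krt7, Tfap2c), while Eomes, at −0.55, did not pass. For primitive endoderm 1 of 3 was higher (Gata6). Col3a1, Postn, Sox17, Foxa2, Pdgfra, Cdx2 and Elf5 had a mean below 1 FPKM and were not tested. No marker was at 0 in all 4 libraries. After centring 3 of the 7 stem cell markers were lower, and 2 fibroblast, 3 trophectoderm and 2 primitive endoderm markers were higher. Their part in the results was not tested, and in these bulk samples fewer cells of a type and less RNA per cell cannot be told apart.

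RNA of the initiation factor genes was lower in shWDR43 cells across nearly every complex. Of the 53 members that passed the filter of a mean of 1 FPKM, 46 were lower, 0 were higher and 7 did not pass the limma threshold; none of the 53 had a log2 fold change above 0. The median log2 fold change of the members was −0.83 (quartiles −0.97 and −0.51), against −0.39 for all tested genes, and 45 members lay below the all-gene median. Summed over all 55 members, RNA was 4754 and 4151 FPKM in shWDR43 cells, against 8152 and 7873 FPKM in shCtl cells. In 51 of the 53 tested members both shWDR43 libraries lay below both shCtl libraries, which held for 63.6% of all tested genes. The 2 members whose libraries overlapped were Eif4g2 and Eif2ak3. With no filter on low values 29 of 54 members were lower. With any 1 of the 4 libraries left out, whether shWDR43 or shCtl, limma called 0 genes after adjustment, with 34 to 44 members lower and 0 higher at an unadjusted p under 0.05.

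Most members are abundant, and abundant genes as a class were lower in shWDR43 cells. Of the 20% of tested genes with the highest mean FPKM (27.2 or more), 78.4% were lower and 2.81% were higher, and their median was −0.71. Among those genes, 37 of 40 members were lower, with a median of −0.89. Outside them, 9 of 13 members were lower with a median of −0.44, against 33.8% of the other tested genes and their median of −0.32. After centring, 35 of 53 members were lower and 0 were higher by limma (0 higher at an unadjusted p under 0.05 as well), with a median of −0.50; among the most abundant 20% this was 33 of 40 members, against 52.5% of those genes. Spearman's rho between mean FPKM and log2 fold change was −0.27 over the 53 members and −0.39 over all tested genes; these are correlations across genes of the same 4 libraries, given as a description. Library by library, the median of the members was −0.69 to −0.94 (log2) in the 4 differences between a shWDR43 and a shCtl library. Within groups it was −0.18 between the shWDR43 libraries and −0.05 between the shCtl libraries.

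**Figure D1:**
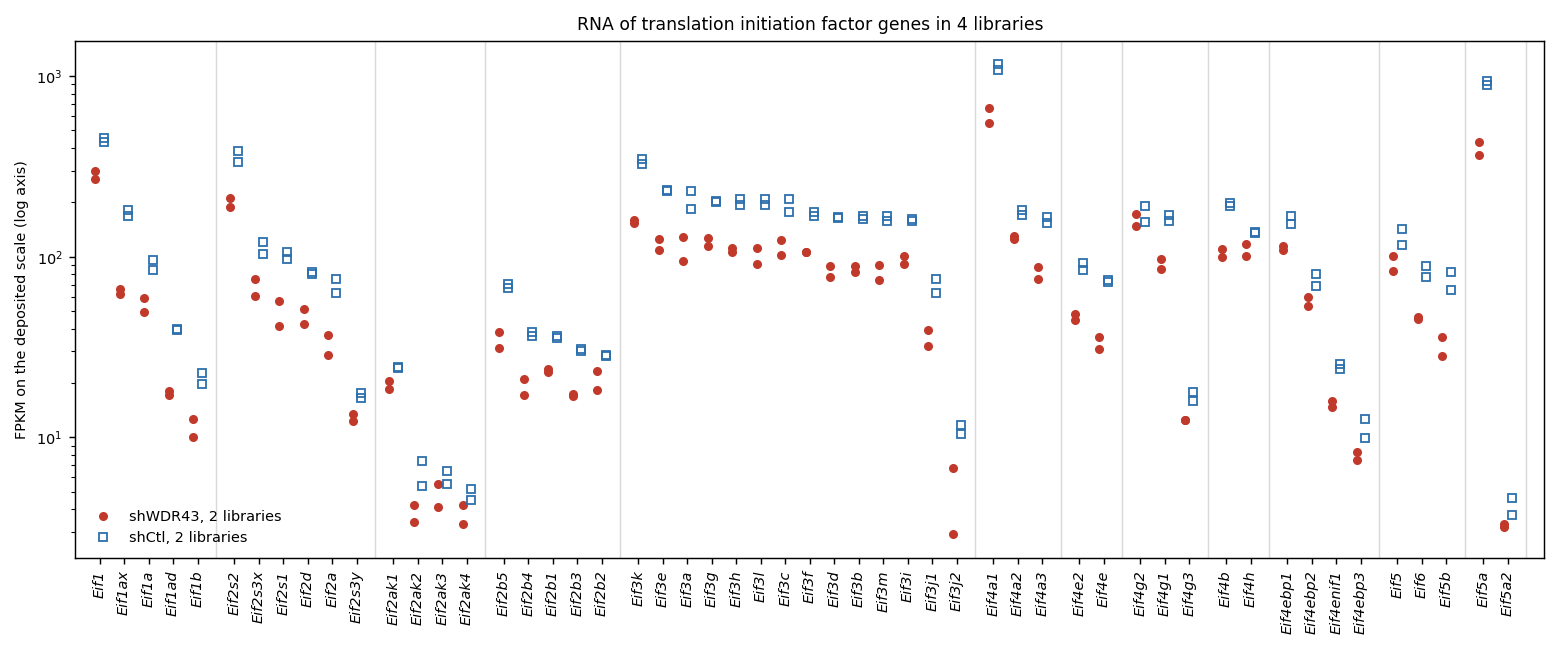
FPKM of the members above 1 FPKM in at least 1 library (log axis) in 2 shWDR43 libraries (filled red circles) and 2 shCtl libraries (open blue squares), grouped by complex with grey lines between the groups. Eif4a1, at 662 and 552 FPKM in shWDR43 cells against 1164 and 1077 FPKM in shCtl cells, is the highest, and the symbols of Eif4g2 overlap.

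The eIF1 and eIF1A genes, whose products keep the scanning ribosome open and guard start codon choice, were all lower (5 of 5, median −0.86). Eif1ax, the X-linked gene for eIF1A, at chrX:155810127-155823631 on build mm9, had 66.4 and 61.9 FPKM in shWDR43 cells, against 167.8 and 181.7 FPKM in shCtl cells. Its log2 fold change of −1.43 ± 0.12 (SE, n = 2 per group; limma adjusted p = 0.00102) was the lowest of all members. Its autosomal counterpart Eif1a had 59.3 and 49.4 FPKM, against 95.8 and 84.3 FPKM in shCtl cells. The Eif1ax to Eif1a ratio was 1.12 and 1.25 in shWDR43 cells, against 1.75 and 2.16 in shCtl cells. Eif1ad, which encodes a protein with an eIF1A domain, had 18.0 and 17.2 FPKM in shWDR43 cells, against 39.7 and 39.5 FPKM in shCtl cells, a log2 fold change of −1.13 ± 0.12 (limma adjusted p = 0.00140). Eif1, for the start codon selection factor eIF1, showed the smallest decrease of the group. It had 298.2 and 269.6 FPKM in shWDR43 cells, against 433.1 and 454.2 FPKM in shCtl cells, with a log2 fold change of −0.64 ± 0.11 (limma adjusted p = 0.00420).

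The genes for eIF2 and its alternatives were likewise all lower (6 of 6, median −0.82). Eif2s1, for the alpha subunit that carries the regulatory phosphorylation site, had 56.6 and 41.6 FPKM in shWDR43 cells, against 106.8 and 97.1 FPKM in shCtl cells (log2 fold change −1.05 ± 0.17, limma adjusted p = 0.00335). Eif2s2, for the beta subunit, had 212.6 and 187.9 FPKM, against 386.7 and 336.6 FPKM in shCtl cells. The gamma subunit is encoded on both sex chromosomes. The X-linked Eif2s3x had 75.2 and 60.9 FPKM in shWDR43 cells, against 120.6 and 103.0 FPKM in shCtl cells, and the Y-linked Eif2s3y had 13.4 and 12.3 FPKM, against 17.6 and 16.6 FPKM in shCtl cells. Eif2s3y was the least reduced of the group and lay close to the threshold (log2 fold change −0.39 ± 0.13, limma adjusted p = 0.0461). The 4 subunit genes together had a median of −0.78. Eif2a and Eif2d encode separate factors that can deliver initiator tRNA without eIF2. Eif2a had 36.8 and 28.7 FPKM in shWDR43 cells, against 75.2 and 63.3 FPKM in shCtl cells (log2 fold change −1.06 ± 0.16, limma adjusted p = 0.00307), and the log2 fold change of Eif2d was −0.79.

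The 5 genes of eIF2B, the exchange factor that reloads eIF2 with GTP, were lower with a median of −0.79. Eif2b5, for the catalytic epsilon subunit, had 38.1 and 31.4 FPKM in shWDR43 cells, against 70.2 and 66.8 FPKM in shCtl cells (log2 fold change −0.97 ± 0.14, limma adjusted p = 0.00255). Eif2b4, for the regulatory delta subunit, had 20.9 and 17.1 FPKM, against 38.4 and 36.2 FPKM in shCtl cells (log2 fold change −0.94 ± 0.15, limma adjusted p = 0.00299). Eif2b2, for the beta subunit, stood at the other end of the complex. It had 23.2 and 18.3 FPKM in shWDR43 cells, against 28.1 and 28.5 FPKM in shCtl cells, with a log2 fold change of −0.44 ± 0.15 (limma adjusted p = 0.0478). After centring, 3 of the 5 subunit genes were lower, with Eif2b1 and Eif2b2 no longer past the threshold.

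The eIF2 kinases, which phosphorylate the alpha subunit under different stresses, had a median fold change nearer to 0 than any other functional group. All 4 genes lay outside the most abundant 20% of tested genes. Tested genes outside that 20% had a median of −0.32, with 33.8% lower, so the kinases stood near genes of lower abundance in general. Only Eif2ak2, for the double-stranded RNA sensor PKR, was lower (1 of 4, median −0.30), at 4.2 and 3.4 FPKM in shWDR43 cells, against 7.4 and 5.4 FPKM in shCtl cells (log2 fold change −0.62 ± 0.19, limma adjusted p = 0.0310). Eif2ak1, for the heme-regulated kinase, had 20.4 and 18.6 FPKM, against 24.1 and 24.5 FPKM in shCtl cells (log2 fold change −0.30 ± 0.13, limma adjusted p = 0.0886). Eif2ak3, for the endoplasmic reticulum stress kinase PERK, had 4.1 and 5.5 FPKM, against 6.5 and 5.5 FPKM in shCtl cells, so its groups met at 5.5 FPKM (log2 fold change −0.28 ± 0.18, limma adjusted p = 0.222). Eif2ak4, for the amino acid sensor GCN2, had 4.2 and 3.3 FPKM, against 4.5 and 5.2 FPKM in shCtl cells (log2 fold change −0.30 ± 0.17, limma adjusted p = 0.171). After centring, none of the 4 passed the limma threshold (0 at an unadjusted p under 0.05), and Eif2ak1, Eif2ak3 and Eif2ak4 had log2 fold changes of 0.03, 0.05 and 0.03.

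All 14 entries for eIF3, the large scaffold that binds the small subunit and bridges it to eIF4G, were lower. Their median was −0.94 and their range was narrow, −1.13 to −0.69, so that the summed FPKM of the complex was 1410 and 1239 in shWDR43 cells, against 2525 and 2433 in shCtl cells. Eif3k, for a subunit of the outer part of the complex, had 160.1 and 153.5 FPKM in shWDR43 cells, against 326.3 and 347.9 FPKM in shCtl cells (log2 fold change −1.10 ± 0.11, limma adjusted p = 0.00113). Eif3j2 had a lower fold change but at low and uneven values, 6.8 and 2.9 FPKM in shWDR43 cells against 10.4 and 11.7 FPKM in shCtl cells (log2 fold change −1.13 ± 0.30, limma adjusted p = 0.0204). Eif3j1 and Eif3j2 cover the same locus on chromosome 2 and are near-identical copies in the table, so how their reads were divided is uncertain; both encode the loosely bound subunit eIF3j. The smallest decrease was that of Eif3f, at 105.9 and 106.7 FPKM in shWDR43 cells, against 168.1 and 177.4 FPKM in shCtl cells (log2 fold change −0.69 ± 0.11, limma adjusted p = 0.00350). Eif3a and Eif3b, which nucleate the complex, had log2 fold changes of −0.89 and −0.94, and Eif3c, another core subunit, of −0.77. After centring, 13 of the 14 remained lower, all but Eif3j2.

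**Figure D2:**
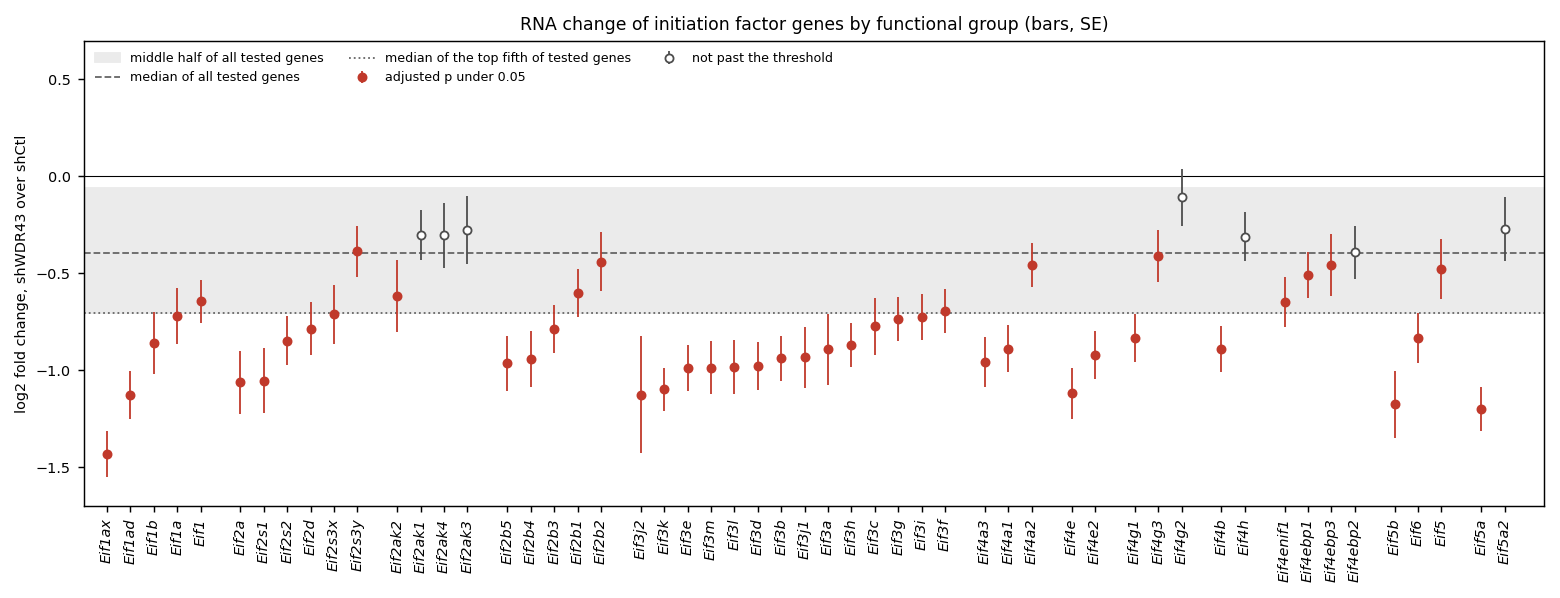
Log2 fold change of FPKM, shWDR43 over shCtl, for the 53 tested members ordered within functional groups (points; bars are SE; filled red, adjusted p under 0.05). The grey band and dashed line are the quartiles and median of all tested genes and the dotted line is the median of the most abundant 20%; all eIF3 points but Eif3f lie below that dotted line at −0.71, while 3 of 4 kinases and Eif4g2 are open points.

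The eIF4A helicase genes were all lower (3 of 3, median −0.89). Eif4a1, for the main helicase of eIF4F, had 661.9 and 551.7 FPKM in shWDR43 cells, against 1163.8 and 1076.8 FPKM in shCtl cells (log2 fold change −0.89 ± 0.12, limma adjusted p = 0.00211). Eif4a2, for its close paralog, had 130.4 and 124.9 FPKM, against 180.9 and 170.1 FPKM in shCtl cells (log2 fold change −0.46 ± 0.11, limma adjusted p = 0.0156). The Eif4a1 to Eif4a2 ratio was 5.08 and 4.42 in shWDR43 cells, against 6.43 and 6.33 in shCtl cells. Eif4a3, whose product belongs to the exon junction complex, had 87.9 and 75.5 FPKM, against 165.5 and 153.4 FPKM in shCtl cells (log2 fold change −0.96 ± 0.13, limma adjusted p = 0.00207).

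The cap-binding genes Eif4e and Eif4e2 were both lower. Eif4e, for the cap-binding subunit of eIF4F, had 35.8 and 30.9 FPKM in shWDR43 cells, against 74.1 and 72.7 FPKM in shCtl cells (log2 fold change −1.12 ± 0.13, limma adjusted p = 0.00155). Eif4e2, for a cap-binding protein that represses translation, had 48.0 and 44.7 FPKM, against 84.7 and 92.8 FPKM in shCtl cells (log2 fold change −0.92 ± 0.12, limma adjusted p = 0.00209). The other two eIF4E genes were not tested: Eif4e1b, known from oocytes, was listed at 0 in all 4 libraries, and Eif4e3 had 0.2 and 0.3 FPKM in shWDR43 cells, against 0.4 and 0.1 FPKM in shCtl cells.

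The scaffold genes of the eIF4G family had unlike fold changes. Eif4g1 had 96.9 and 85.5 FPKM in shWDR43 cells, against 169.9 and 156.7 FPKM in shCtl cells (log2 fold change −0.84 ± 0.12, limma adjusted p = 0.00277). Eif4g3 had 12.5 and 12.4 FPKM, against 17.9 and 15.9 FPKM in shCtl cells (log2 fold change −0.41 ± 0.13, limma adjusted p = 0.0399). Eif4g2 encodes DAP5, a relative that lacks the eIF4E-binding region and serves cap-independent initiation. It had 173.0 and 147.9 FPKM in shWDR43 cells, against 190.8 and 155.9 FPKM in shCtl cells. The groups overlapped, and its log2 fold change of −0.11 ± 0.15 (limma adjusted p = 0.560) was the highest of the 53 members; after centring it was 0.22. In the authors' deposited table its signed fold change was −1.08, with an unadjusted p of 0.30, and that of Eif1ax was −2.72. Within libraries the Eif4g1 to Eif4g2 ratio was 0.560 and 0.578 in shWDR43 cells, against 0.890 and 1.01 in shCtl cells.

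Of the helicase partners, Eif4b was lower, at 110.7 and 99.8 FPKM in shWDR43 cells, against 199.4 and 192.0 FPKM in shCtl cells (log2 fold change −0.89 ± 0.12, limma adjusted p = 0.00198). Eif4h had 117.8 and 100.8 FPKM, against 136.2 and 134.5 FPKM in shCtl cells; the libraries did not overlap but the difference did not pass (log2 fold change −0.31 ± 0.13, limma adjusted p = 0.0795). The eIF4E-binding protein group, inhibitors of eIF4F assembly together with the shuttling protein gene Eif4enif1, was lower in 3 of 4 genes with a median of −0.48, and in 0 of 4 by limma after centring (1 at an unadjusted p under 0.05). Eif4enif1 had 15.9 and 14.8 FPKM in shWDR43 cells, against 25.4 and 23.9 FPKM in shCtl cells (log2 fold change −0.65 ± 0.13, limma adjusted p = 0.00708). Eif4ebp1 had 114.7 and 109.5 FPKM, against 151.2 and 169.0 FPKM in shCtl cells (log2 fold change −0.51 ± 0.12, limma adjusted p = 0.0129). Eif4ebp2 had 60.1 and 53.1 FPKM, against 69.2 and 80.1 FPKM in shCtl cells, just outside the threshold (log2 fold change −0.39 ± 0.14, limma adjusted p = 0.0502). Set against Eif4e RNA, both inhibitors stood higher in shWDR43 cells. Eif4ebp1 to Eif4e was 3.20 and 3.54 in shWDR43 cells, against 2.04 and 2.32 in shCtl cells, and Eif4ebp2 to Eif4e was 1.68 and 1.72, against 0.934 and 1.10 in shCtl cells.

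The factor genes Eif5, Eif5b and Eif6 were all lower (median −0.83). Eif5, for the GTPase activator of eIF2, had 101.3 and 83.7 FPKM in shWDR43 cells, against 141.8 and 116.8 FPKM in shCtl cells (log2 fold change −0.48 ± 0.15, limma adjusted p = 0.0375). Eif5b, for the GTPase of subunit joining, had 36.0 and 28.3 FPKM, against 82.4 and 65.3 FPKM in shCtl cells (log2 fold change −1.18 ± 0.17, limma adjusted p = 0.00266). Eif6, whose product keeps the large subunit apart from the small one, had 46.5 and 45.4 FPKM, against 77.1 and 88.7 FPKM in shCtl cells (log2 fold change −0.83 ± 0.13, limma adjusted p = 0.00304). Eif5a, for a hypusine-bearing factor now known mostly for elongation, was the second most abundant member. It had 430.3 and 368.0 FPKM in shWDR43 cells, against 891.4 and 940.1 FPKM in shCtl cells, and a log2 fold change of −1.20 ± 0.12 (limma adjusted p = 0.00109). Its paralog Eif5a2 was low and did not pass, at 3.2 and 3.3 FPKM in shWDR43 cells, against 4.6 and 3.7 FPKM in shCtl cells (log2 fold change −0.27 ± 0.16, limma adjusted p = 0.204). The Eif5a to Eif5a2 ratio was 134 and 112 in shWDR43 cells, against 194 and 254 in shCtl cells.

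In all, 12 such within-library ratios were computed. Each that is printed above gave an exact two-sided permutation p of 0.333, the smallest that 2 against 2 libraries allow (0.364 after Benjamini-Hochberg adjustment over the 12), so the design cannot bring them under 0.05. A ratio within a library shows unequal change and not that either gene stayed level. The Eif1 to Eif1b ratio overlapped between groups, at 29.8 and 21.4 in shWDR43 cells and 21.9 and 20.0 in shCtl cells.

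Other genes of the translation system were read from the same fit. Of 22 initiation accessory genes (poly(A)-binding proteins, their regulators and signalling kinases), 14 were lower and 0 higher by limma on the deposited scale (median −0.68), where 42.7% of all tested genes were lower; after centring 9 were lower and 1, Pdcd4, was higher. The lowest were Bzw2, for an eIF5 mimic, at −1.31, and the poly(A)-binding protein gene Pabpc4 at −1.27. The highest, neither past the threshold on the deposited scale, were Pdcd4, for an eIF4A inhibitor, at 0.16, and the eIF4E kinase gene Mknk1 at 0.03. Of 11 tested elongation and termination factor genes, 8 were lower and 0 higher (median −0.90), and 6 were lower and 0 higher after centring. The lowest were Eef1e1 (−1.09), which is in the list by its symbol only, and Eef1g (−1.07). The highest, not past the threshold, were Eef2 (−0.25) and Eefsec (−0.35). Of 8 mitochondrial translation factor genes, 5 were lower and 0 higher (median −0.87), and 4 were lower and 0 higher after centring, led by Tufm (−1.10) and Tsfm (−1.09), while Mtif2 (−0.34) and Mtif3 (−0.44) did not pass. On the deposited scale no gene of these 3 lists was higher at an unadjusted p under 0.05 either.

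The integrated stress response, the program downstream of eIF2 phosphorylation, was mixed. Of 11 tested genes, 4 were lower and 3 higher (median −0.11), and 3 were lower and 4 higher after centring. Over all tested genes 42.7% were lower and 6.10% higher, and 20.9% were lower and 13.0% higher after centring. Ddit3, for the stress factor CHOP, was higher, at 17.8 and 20.2 FPKM in shWDR43 cells, against 5.5 and 4.8 FPKM in shCtl cells (log2 fold change 1.70 ± 0.14, limma adjusted p = 0.00102). Atf3 was higher as well, at 5.0 and 3.6 FPKM, against 0.6 and 1.2 FPKM in shCtl cells (log2 fold change 1.49 ± 0.24, limma adjusted p = 0.00331). Chac1, for a glutathione-degrading enzyme, was lower, at 0.6 and 0.5 FPKM in shWDR43 cells, against 5.7 and 5.7 FPKM in shCtl cells (log2 fold change −2.11 ± 0.17, limma adjusted p = 0.00102). Ppp1r15b, for a subunit of the phosphatase that acts on eIF2, had a log2 fold change of −1.01, and Atf4, the central transcription factor of the program, of −0.82; both were lower. The members of this list therefore moved in opposite directions.

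WDR43 peaks lay at most initiation factor loci, mainly at their starts. A locus was taken as the gene and 1 kb on either side, with an overlap of at least 1 bp. Eif3j1 and Eif3j2 cover nearly the same interval and hold the same peaks. Each peak there counts for both members, in the WDR43 and the Pol II counts. Every one of the 55 loci had a peak in at least 1 of the 5 WDR43 lists, against 73.5% of protein-coding loci, untested ones included. Eif1ax, Eif2s3y, Eif4e3 and Eif4ebp3 each had only 1 such peak, scoring 54.64, 50.63, 51.9 and 60.21, where the lowest score in any list was 50. The WDR43 peaks counted for Eif4e1b lay beyond the end of the gene, on the side of its neighbour Tspan17. By list, 11 members had a peak under DRB (20%, against 9.92% of protein-coding loci), 1 under ActD (1.82%, against 0.659%), 43 under DMSO (78.2%, against 56.1%), 53 in the FB list (96.4%, against 66.4%) and 47 in the cFB-KI list (85.5%, against 64.1%). Among protein-coding loci whose RNA was tested the shares were 13.2% under DRB, 78.7% under DMSO, 90.3% in the FB list and 87.3% in the cFB-KI list. In the most abundant 20% of these they were 16.1% under DRB, 83.4% under DMSO, 94.8% in the FB list and 90.7% in the cFB-KI list. The 38 members among the most abundant loci stood at 26.3%, 81.6%, 97.4% and 89.5% in the same lists. Exact 95% intervals for all 55 members, which cover counting error only, were 10.4% to 33.0% under DRB and 65.0% to 88.2% under DMSO. The DMSO, FB and cFB-KI lists shared 39 member loci, against 48.7% of protein-coding loci. With 1 library per condition no test was possible.

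**Figure D3:**
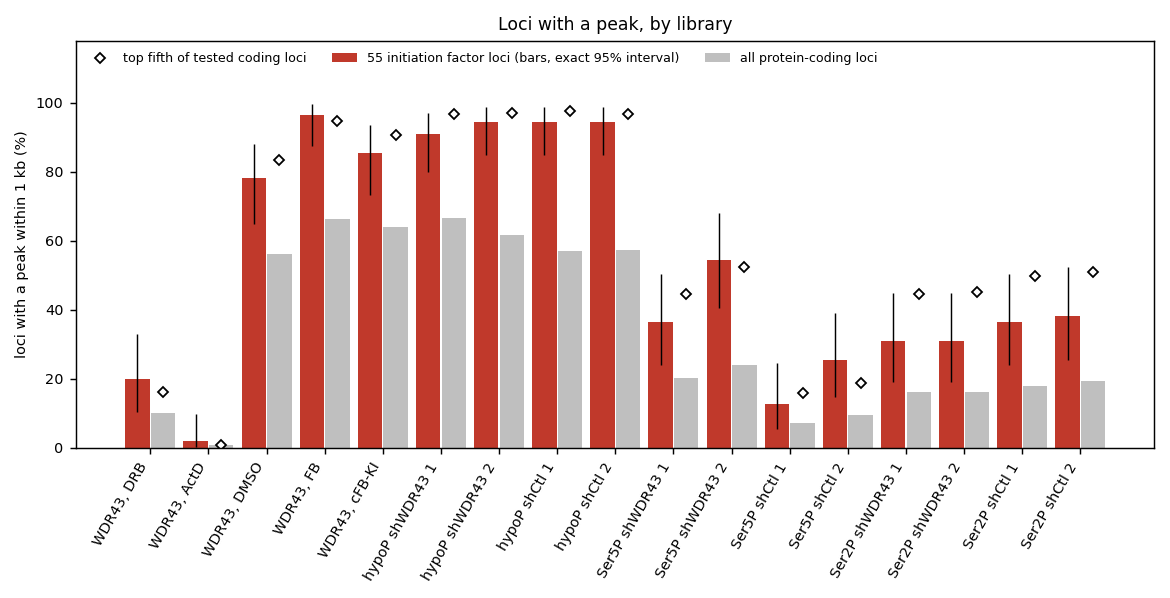
Share of loci with a peak within 1 kb (%) in each of 17 lists, for the 55 initiation factor loci (red bars with exact 95% intervals), all protein-coding loci (grey bars) and the most abundant 20% of tested protein-coding loci (diamonds). The red bars stand above the grey ones in every list. They lie below the diamonds in 12 of the 17, including the DMSO, cFB-KI, hypoP and Ser2P lists and replicate 1 of Ser5P in both groups. The red bars hold members of any abundance and the diamonds only abundant loci, so the sets are unlike. The 38 members among the most abundant loci are not drawn.

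The lists under DRB and ActD are shorter in all, with 4426 and 407 peaks, against 31189 under DMSO, and both are read against that same DMSO list. Depth is unknown, so a peak missing from a list may be one that was not called. All 11 members with a peak under DRB also had a DMSO peak, which is 25.6% of the members' DMSO loci, against 16.3% over protein-coding loci. They were Eif1, Eif2s2, Eif3a, Eif3b, Eif4a1, Eif4a2, Eif4b, Eif4g1, Eif4g2, Eif4h and Eif5a2. By complex this is 2 of 3 eIF4A genes, 2 of 3 eIF4G genes and both of Eif4b and Eif4h, with 2 of 14 eIF3 genes and none of the 5 eIF2B or 4 kinase genes.

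The highest DRB score among the members was at Eif1, where a peak of 381 bp at chr11:100181522-100181902 (mm9) scored 110.29, the score being the authors' own value for each peak. Its centre lay 402 bp downstream of the annotated start; the DMSO list held 2 peaks there, scoring 91.75 and 150.8. At Eif3b the DRB peak at chr5:140895268-140895584 scored 92.58 with its centre 167 bp downstream of the start. At Eif5a2, whose RNA was among the lowest of the members, the DRB peak at chr3:28680152-28680333 scored 76.93 and was centred 10 bp downstream. The remaining DRB peaks scored 50.02 to 61.94, close to the lowest score of 50 in the lists. The single ActD peak, at chr1:38054972-38055112 and 187 bp downstream of the Eif5b start, scored 50.8. It lies within a DMSO peak at chr1:38054763-38055299 that scored 115.17.

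Among the 43 members with a strand in the RefSeq table, peaks within 1 kb of the annotated start were found for 10 under DRB (23.3%, against 6.43% of 14970 protein-coding loci with a strand), 36 under DMSO (83.7%, against 44.4%), 41 in the FB list (95.3%, against 56.9%) and 37 in the cFB-KI list (86.0%, against 57.8%). Among stranded protein-coding loci whose RNA was tested the shares were 9.96% under DRB, 69.5% under DMSO, 84.6% in the FB list and 83.5% in the cFB-KI list. At the far end only 1 member had a DMSO peak, 4 had an FB peak and 2 a cFB-KI peak. The median peak centre lay 355 bp downstream of the start under DRB (11 peaks), 41 bp under DMSO (54 peaks), 156 bp in the FB list (72 peaks) and 102 bp in the cFB-KI list (42 peaks).

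Most members were lower in RNA whether or not they had these peaks. The 11 with a DRB peak held 8 that were lower, with a median log2 fold change of −0.84, and the 42 tested members without one held 38, with a median of −0.81. The 43 with a DMSO peak held 36 that were lower (median −0.79), and all 10 tested members without one were lower (median −0.88). Those 10 were Eif1ax, Eif2ak2, Eif2s3x, Eif3i, Eif3j1, Eif3j2, Eif3k, Eif3l, Eif4ebp3 and Eif6. At Eif1ax the FB list alone held a WDR43 peak, of 200 bp at chrX:155810242-155810441 with a score of 54.64. Eif4g2, with no call in RNA, had WDR43 peaks in 4 lists, scoring 50.53 under DRB, 200.51 and 87.85 under DMSO, 701.23 in the FB list and 420.36 in the cFB-KI list. These values are set side by side without a test.

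**Figure D4:**
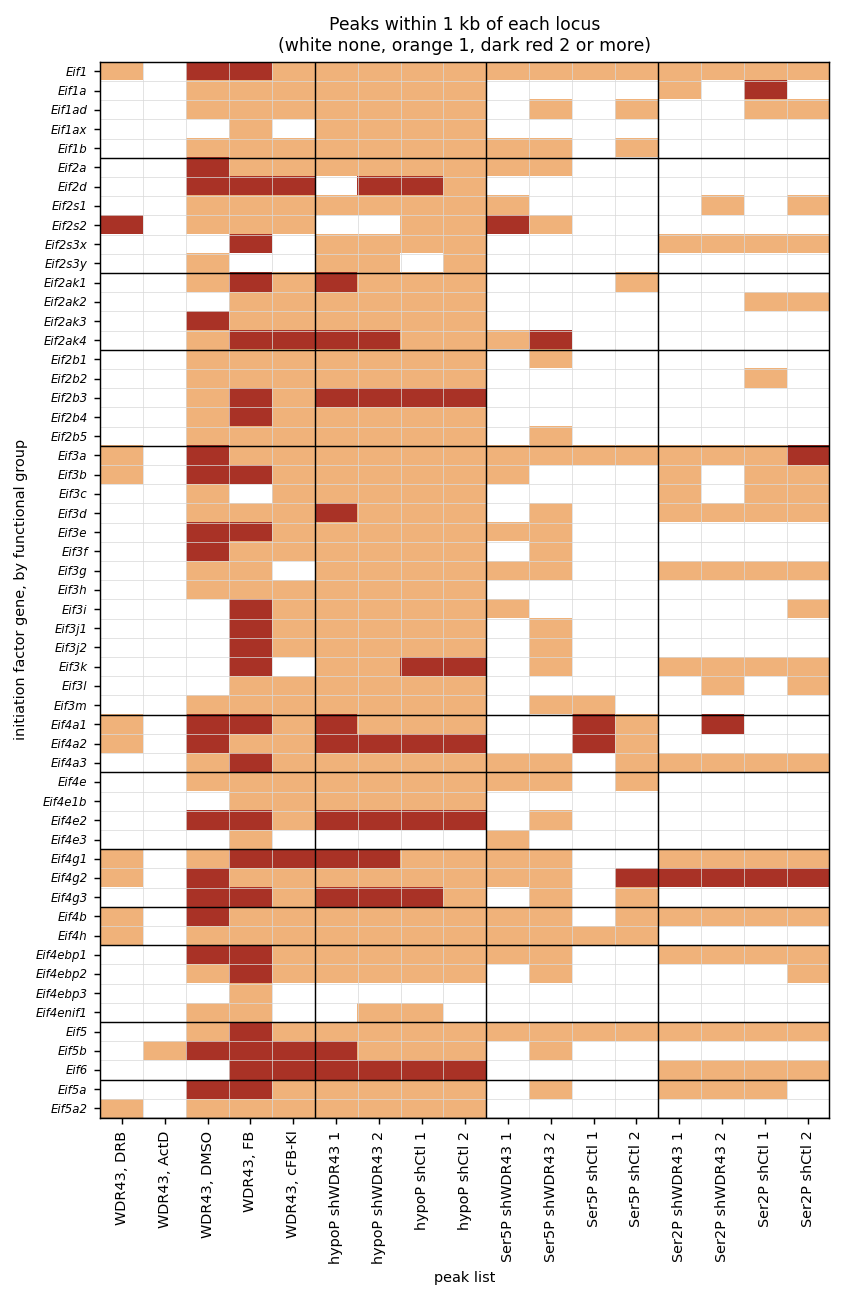
Peaks within 1 kb of each of the 55 loci (rows, by functional group) in the 17 lists (columns); white is no peak, orange 1 and dark red 2 or more. Eif1 and Eif3a have a peak in 16 lists each, Eif4ebp3 in 1, and the hypoP columns are nearly filled.

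Hypophosphorylated Pol II was present at nearly all initiation factor loci in both groups of cells. Members with a hypoP peak numbered 50 and 52 in the shWDR43 libraries, against 52 and 52 in the shCtl libraries (exact two-sided permutation p = 1, n = 2 per group). The shares over protein-coding loci were 66.5% and 61.7% in shWDR43 cells and 57.0% and 57.2% in shCtl cells. Among protein-coding loci whose RNA was tested they were 95.2% and 93.2% in shWDR43 cells and 89.98% and 89.96% in shCtl cells. In the most abundant 20% of these they were 96.7% and 97.0% in shWDR43 cells and 97.6% and 96.7% in shCtl cells. The shares of all 55 members, of any abundance, were 90.9% and 94.5% in shWDR43 cells and 94.5% and 94.5% in shCtl cells. The 38 members among those most abundant loci stood at 94.7% and 97.4% in shWDR43 cells and 100% and 100% in shCtl cells. In all 4 libraries 49 members had a peak. For Eif4e1b, whose RNA was listed at 0, these peaks lay beyond the end of the gene, on the side of its neighbour Tspan17. No member had a peak in both shWDR43 libraries and neither shCtl library, against 3.74% of protein-coding loci, untested ones included. The reverse held for Eif2s2 alone, against 0.119%. Few members could gain a peak, since 52 had one in each shCtl library, where 57.0% and 57.2% of protein-coding loci did. The 0 gains therefore do not set the members apart. Of the 43 stranded members, 40 and 42 had a hypoP peak within 1 kb of the annotated start in shWDR43 cells (93.0% and 97.7%). In shCtl cells 42 and 42 did (97.7% and 97.7%). Over stranded protein-coding loci the shares were 59.0% and 55.4% in shWDR43 cells and 52.1% and 52.0% in shCtl cells. Where RNA was tested they were 91.4% and 89.6% in shWDR43 cells and 86.8% and 86.5% in shCtl cells. The shCtl peaks at Eif2s2 were broad, 7660 bp with a score of 56.03 and 4874 bp with a score of 153.41, and spanned the start.

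Ser5P peaks were called at more members in shWDR43 cells, 20 and 30, against 7 and 14 in shCtl cells. The groups did not overlap, and the exact two-sided permutation p of 0.333 is the smallest that 2 against 2 libraries allow (0.5 adjusted over the 3 antibodies). The lists as a whole differed the same way, with 6535 and 7589 peaks in shWDR43 cells, against 1879 and 2520 in shCtl cells, and 20.3% and 23.8% of protein-coding loci, against 7.12% and 9.39% in shCtl cells. Among protein-coding loci whose RNA was tested the shares were 32.8% and 38.0% in shWDR43 cells, against 10.8% and 14.0% in shCtl cells. In the most abundant 20% of these they were 44.6% and 52.5% in shWDR43 cells, against 15.7% and 18.9% in shCtl cells. Those of all 55 members were 36.4% and 54.5% in shWDR43 cells, against 12.7% and 25.5% in shCtl cells. The 38 members among the most abundant loci stood at 44.7% and 65.8% in shWDR43 cells, against 18.4% and 26.3% in shCtl cells. At annotated starts, 13 and 24 stranded members had a Ser5P peak in shWDR43 cells (30.2% and 55.8%). In shCtl cells 7 and 12 did (16.3% and 27.9%). Over stranded protein-coding loci the shares were 16.7% and 19.8% in shWDR43 cells, against 5.76% and 7.57% in shCtl cells. Where RNA was tested they were 28.3% and 33.8% in shWDR43 cells, against 9.09% and 11.8% in shCtl cells. The members gaining a peak in both shWDR43 libraries were 7, against 7.47% of protein-coding loci, untested ones included. They were Eif2a, Eif2ak4, Eif2s2, Eif3e, Eif3g, Eif4ebp1 and Eif4g1. The count was 18 without shWDR43 replicate 1, 11 without shWDR43 replicate 2 and 12 without shCtl replicate 2. Shares over protein-coding loci are not given for these looser counts, so they cannot be set against the 7.47%. The place of the peaks differed among the 7 members named. At Eif4g1 and Eif2s2 peaks stood at the start, scoring 100.56 and 111.31 at Eif4g1, while at Eif2ak4 they stood inside the gene and at Eif3g at its far end. Eif2s2 thus had start peaks for Ser5P in both shWDR43 libraries alone, scoring 110.45 and 108.04, and for hypoP in both shCtl libraries alone. Against the main direction, Eif4a1 and Eif4a2, the paired helicase genes, had Ser5P peaks in both shCtl libraries and in neither shWDR43 library. The same held for 0.337% of protein-coding loci, untested ones included. At the start of Eif4a2 the shCtl peaks scored 105.61 and 97.43, and at that of Eif4a1 63.43 and 85.39. Eif1, Eif3a, Eif4h and Eif5 had a Ser5P peak in all 4 libraries.

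Ser2P peaks numbered slightly fewer members in shWDR43 cells, 17 and 17, against 20 and 21 in shCtl cells, with an exact two-sided permutation p of 0.333 (0.5 adjusted). This did not hold for peaks with a score of at least 100. Over protein-coding loci the shares were 16.2% and 16.3% in shWDR43 cells, against 17.9% and 19.4% in shCtl cells. Where RNA was tested they were 26.2% and 26.4% in shWDR43 cells, against 29.1% and 31.4% in shCtl cells. In the most abundant 20% of these loci they were 44.6% and 45.2% in shWDR43 cells and 49.9% and 51.0% in shCtl cells. The shares of all 55 members were 30.9% and 30.9% in shWDR43 cells and 36.4% and 38.2% in shCtl cells. The 38 members among the most abundant loci stood at 44.7% and 44.7% in shWDR43 cells and 44.7% and 50% in shCtl cells. The members with Ser2P in all 4 libraries were 13: Eif1, Eif2s3x, Eif3a, Eif3d, Eif3g, Eif3k, Eif4a3, Eif4b, Eif4ebp1, Eif4g1, Eif4g2, Eif5 and Eif6. No member gained a peak in both shWDR43 libraries (0.837% of protein-coding loci did, untested ones included). Eif1ad and Eif2ak2 had peaks in both shCtl libraries alone (2.00% of those loci did), scoring 53.27 and 60.84 at Eif1ad and 55.71 and 73.98 at Eif2ak2. Ser2P stood at the far end of the genes: 13 and 14 of the 43 stranded members had a far-end peak in shWDR43 cells, against 15 and 15 in shCtl cells. As shares these were 30.2% and 32.6% in shWDR43 cells, against 34.9% and 34.9% in shCtl cells. Stranded protein-coding loci stood at 11.0% and 11.3% in shWDR43 cells and 13.3% and 14.8% in shCtl cells. Those whose RNA was tested stood at 18.7% and 19.1% in shWDR43 cells and 22.6% and 24.8% in shCtl cells. Start peaks for Ser2P were found at 0 and 1 members in shWDR43 cells (5.87% and 5.91% of protein-coding loci had them), against 2 and 3 in shCtl cells (5.54% and 6.10%).

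**Figure D5:**
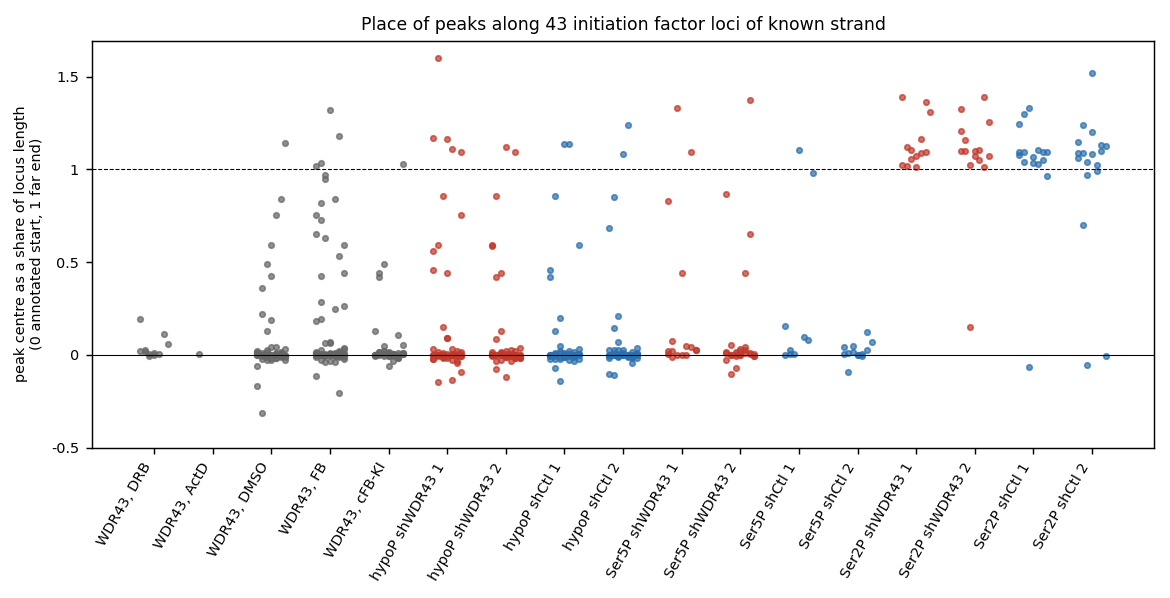
Centre of each peak as a share of locus length (0 is the annotated start, 1 the far end, dashed) at the 43 members of known strand, by list; red points are shWDR43, blue shCtl and grey WDR43 libraries. Points of the WDR43, hypoP and Ser5P lists crowd at 0, and those of the Ser2P lists lie near and beyond 1, with medians of 1.10 and 1.10 in shWDR43 cells and 1.09 and 1.08 in shCtl cells.

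Neighbouring genes limit how far a peak or a read can be assigned. Of the 55 member loci, 7 overlapped another protein-coding entry and 18 had such an entry overlapping or within 1 kb. Eif4a2 overlaps Rfc4 by 185 bp, Eif2a overlaps Serp1 by 64 bp, and Eif5b overlaps Rev1 by 2794 bp. With no strand stated for the RNA counting, reads in these overlaps cannot be told apart, and 21 members had no other entry within 1 kb.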

How the data were processed

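The 55 members, the lists and the tests were chosen with earlier results of these data known. Of 27 samples, 21 were used (4 RNA, 17 ChIP) and grouped by title; 6 are not analysed here. RNA reads were handled with TopHat and Cufflinks and ChIP reads with Bowtie2 on mm9, per the submitters' processing notes. The authors deposited values to 1 decimal per gene and library; FPKM was inferred from Cufflinks, as the deposited table does not write the unit. The sources used here do not give how the spike-in was applied, so read depth is unknown. The table also holds the authors' signed fold ratio (knockdown over control) with its p-value. Each deposited peak list gives places and the authors' MACS score per peak, of at least 50; peaks were called per library, and the sources used here give neither the control nor the threshold.

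RNA was compared with limma 3.58.1 (R 4.3.3, intensity trend, no block) on log2(FPKM + 1) for 12452 genes with a mean of at least 1 FPKM; p-values were adjusted by Benjamini-Hochberg over all of them, with a threshold of 0.05. Such fold changes understate the change of low genes. The fit was tested on simulated data. Starts of mm9 loci in the table were taken as 0-based, and coordinates are printed 1-based; strand came from RefSeq (GRCm38.p6) by symbol, with no conversion of coordinates. Locus counts used Python 3.11.15 and scipy 1.17.1, with exact (Clopper-Pearson) 95% intervals. Named genes are the 2 lowest and the highest fold change of each functional group, all of a group of 3 or fewer, and the 5 lowest and 5 highest of all members. Members named for peaks, ratios or promoters were chosen after their values were seen. Alternatives were other pseudocounts and filters, centred libraries, no trend, a replicate block, protein-coding entries alone, leaving out libraries, and other windows, overlaps and score minimums.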

Additional observations from a re-analysis of the deposited data

How the results depend on the processing

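Members lower in shWDR43 cells numbered 46 of 53, and 46 with a pseudocount of 0.25 or 4, 47 with a mean of at least 5 FPKM (of 51), 47 over protein-coding entries alone, 41 with no trend, 35 with centred libraries and 29 of 54 with no filter, where 22832 genes were tested. None was higher under any of these, nor at an unadjusted p under 0.05. For the other translation lists and the integrated stress response list together, no filter left 20 genes lower. By list, 14 initiation accessory, 8 elongation and termination, 5 mitochondrial and 4 stress response genes were lower at the main setting. Centring gave 1 higher among initiation accessory genes, 4 in the integrated stress response and 0 in the others. The RNA libraries share only a number (correlation of same-numbered deviations 0.0504); with a replicate block 48 members were lower, adding Eif4ebp2 and Eif4h. Leaving out each RNA library in turn leaves 1 residual degree of freedom, with the lone library assumed to vary like the other group: limma then called 0 members and 0 list genes, lower or higher (0 of 12452 genes), and 34 to 44 members were lower at an unadjusted p under 0.05, 52 to 53 of 53 being below 0. Centring turned the sign of 6 members that had not passed: Eif4g2 (0.22), Eif4h (0.0198), Eif2ak1 (0.0251), Eif2ak3 (0.0518), Eif5a2 (0.0583) and Eif2ak4 (0.0256). Eif4g2 was 0.0044 without shWDR43 replicate 2 and 0.0369 without shCtl replicate 1, in a range of −0.2529 to 0.0369 over all 4 omissions.

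For peaks, a score of at least 100 left members with a peak at 1 under DRB, 0 under ActD and 28 under DMSO; the higher-scoring 50% of each list left 5 under DRB and 0 under ActD. For Ser5P, a score of at least 100 left 7 and 8 members in shWDR43 cells, against 1 and 2 in shCtl cells. The higher-scoring 50% left 13 and 13 in shWDR43 cells, against 6 in shCtl replicate 2 and at most the main count of 7 in shCtl replicate 1. For Ser2P, requiring 50% of a peak inside the window left 6 and 9 in shWDR43 cells, against 10 and 9 in shCtl cells. A score of at least 100 left 12 and 11 in shCtl cells. The shWDR43 libraries then held no fewer, so the smaller shWDR43 count of the main setting was lost. The higher-scoring 50% left 12 in shCtl replicate 1, and a window of 0 kb left 10 in shWDR43 replicate 1. Loci gaining Ser5P numbered 4 under either score setting, and those losing it 0 at a score of at least 100; hypoP losses were 0 under both. Ser2P gains were 1 at a score of at least 100 and 2 in the higher-scoring 50%; Ser2P losses were 1 with 0 kb, with 5 kb, with 50% inside and at a score of at least 100, and 0 in the higher-scoring 50%. Leaving out each library in turn, gains ranged over 0 to 1 (hypoP), 7 to 18 (Ser5P; 18 without shWDR43 replicate 1, 11 without shWDR43 replicate 2 and 12 without shCtl replicate 2) and 0 to 1 (Ser2P), and losses over 1 to 2 (hypoP), 2 to 3 (Ser5P) and 2 to 4 (Ser2P, 4 without shWDR43 replicate 1 or without shCtl replicate 1). Shares over protein-coding loci are not given for these settings, and the cause of these differences was not tested. For ChIP the labels do not say what numbers 1 and 2 mark. Same-numbered libraries, shWDR43 minus shCtl, differed by 13 and 16 members for Ser5P, −2 and 0 for hypoP and −3 and −4 for Ser2P, and a pairing of 2 libraries per group allows no exact p under 0.5. Unknown ChIP depth and 2 libraries per group limit every count.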
